A study of Mus musculus with 112 samples.

Results

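The response of epididymal white adipose tissue (WAT) to caloric restriction (CR) was set between mice restricted deeply and mice restricted mildly. The deeply restricted strains were 129S1/SvImJ and C57BL/6J, and the mildly restricted strains were CBA/J, C3H/HeJ, DBA/2J and the hybrid B6C3F1/J. Strains were placed by the weekly ration stated for them and not by any value of these arrays. The study had adjusted the ration of some strains to weight changes seen earlier under CR. The ration was therefore tied to how such strains had responded to CR before. The strains compared held 96 of the 112 arrays of the series, 32 from deeply and 64 from mildly restricted strains, with 8 CR and 8 control mice in each strain. The other 16 arrays, from BALB/cJ, had rations of their own (24 g on CR and 31 g on the control diet, or 22.58% less) and are given beside the comparison, although they entered the estimate of the spread between mice. All mice were male, bought from Jackson, housed singly and 22 weeks old, and CR began at 8 weeks of age. CR mice of the deeply restricted strains received 18 g of food a week until 14 weeks of age and 14 g thereafter, against 24 g in their controls, so the later ration was 41.67% smaller. CR mice of the mildly restricted strains stayed at 18 g, against 24 g in their controls, a ration 25% smaller. Each array held RNA of 1 mouse, killed after an overnight fast. The clock hour of collection is not given in the sources used here.

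No strain was fed both CR rations, so the depth of restriction and the strain cannot be told apart in these data. The B6C3F1/J hybrid also has C57BL/6 as a parent, so its genome is shared in part with a deeply restricted strain. The measurement was the difference in CR response, which is the CR effect (CR minus control) averaged over the deeply restricted strains minus the CR effect averaged over the mildly restricted strains. All values are log2 signals or differences between log2 signals, on which a difference of 1 is a 2-fold change. The 11 measured adipocyte markers averaged 11.50 to 12.72 in deeply restricted CR mice and 12.47 to 12.63 in their controls, and 12.04 to 12.68 in mildly restricted CR mice and 12.30 to 12.65 in their controls, against an all-array median of 6.77 over probe sets. In whole fat, fewer cells of a type and less RNA per cell give the same signal and could not be separated. The signal of 9 arrays stood apart, mostly through epididymis markers (2 deeply restricted CR arrays, 5 mildly restricted CR arrays and 2 mildly restricted control arrays).

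White adipocytes store triacylglycerol, break it down in fasting and rebuild it after a meal, and in restricted rodents the fat pad makes new fatty acids from glucose when food arrives. The pad also holds macrophages, which take up lipid and dead cells and digest them in lysosomes, and an outer layer of mesothelium. Fat cells run a circadian clock in which the BMAL1 and CLOCK proteins drive genes such as Per and Rev-erb whose products repress them, and feeding time is known to set the phase of this clock in peripheral tissues of rodents.

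The CR response differed between deeply and mildly restricted strains in 1330 of 19938 genes (6.67%), by limma with p under 0.05 when adjusted over all genes by the Benjamini-Hochberg method. The difference was positive in 752 genes (3.77%) and negative in 578 (2.9%), and its median size among the called genes was 0.28. A positive difference does not mean that the gene rose on CR, so the called genes were also sorted by what they did in each set of strains. They changed in the same direction in both sets, and further in the deeply restricted strains, for 340 genes, of which 163 rose and 177 fell on CR. The change was larger in the mildly restricted strains for 110 genes, of which 105 fell. A further 483 were called only in the deeply restricted strains, 220 higher and 263 lower on CR, and 316 only in the mildly restricted strains, 93 higher and 223 lower. The remaining genes moved in opposite directions (74 genes) or were called in neither set (7 genes).

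Within each set, CR was called higher in 3358 genes (16.8%) and lower in 3110 (15.6%) in the deeply restricted strains, and higher in 3675 (18.4%) and lower in 3638 (18.2%) in the mildly restricted strains. Over all genes the effects had a standard deviation of 0.25 in deeply and 0.22 in mildly restricted strains, and across genes, which are not independent replicates, the pair of effects correlated with r = 0.769. The plot of the deep against the mild effects shows that most genes lay near a common line and that the called genes lay off it on both sides. The control mice differed more between the sets of strains than the CR mice did in 905 of the 1330 called genes (68%), against 54.8% of all genes.

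**Figure D1:**
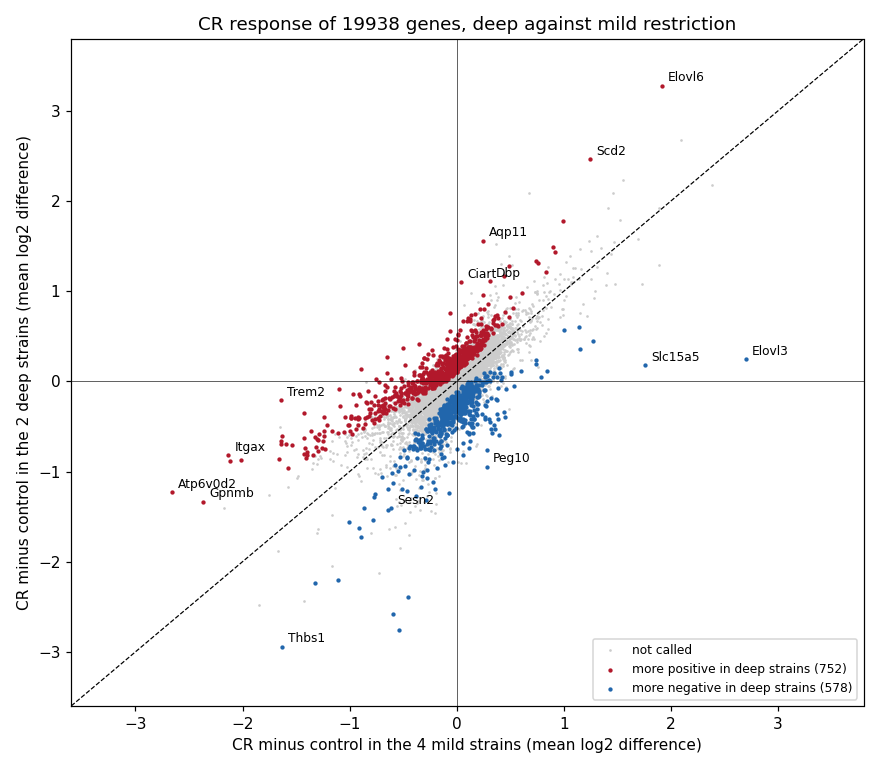
Mean CR effect (CR minus control, log2) of each of the 19938 genes in the deeply restricted strains (vertical axis) and in the mildly restricted strains (horizontal axis), with equal effects on the dashed line. Red points are the 752 genes with a more positive and blue points the 578 genes with a more negative response in the deeply restricted strains, grey points did not pass the test, and Elovl3 (difference -2.45) lies far below the line and Trem2 (1.43) far above it.

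With 2 strains against 4, the strain is the unit that the ration was given to. When each strain entered with 1 CR effect, 0 genes passed adjustment (smallest adjusted p = 0.304 by limma). An unadjusted limma p under 0.05 was found for 992 genes (4.98%), about the share that this cutoff gives by chance. They included 714 of the 1330, but those had been called on the same difference, so the overlap is no separate evidence. The adjusted p-values given below therefore measure the spread between mice within these 6 strains and not the spread over strains. A plainer description was whether both deeply restricted strains had a CR effect above, or below, the effects of all 4 mildly restricted strains. This held for 2327 genes (11.7%), and 907 genes (4.55%, or 68.2% of the called genes) were both called and placed this way, 489 above and 418 below. The placing has no test of its own. If the 6 strain effects fell in random order, it would arise by chance in a somewhat larger share of genes, so the 11.7% is not an excess. Strains within a set also differed among themselves. The responses of 129S1/SvImJ and C57BL/6J differed in 671 genes (3.37%), including 87 of the called genes, and those of the 4 mildly restricted strains differed in 1439 genes (7.22%), including 304 of the called genes.

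Many calls were lost when 1 strain was left out. A fit without a strain is also less precise, so a lost call does not by itself show that this strain carried the difference. Dusp1 lost its call without C3H/HeJ, DBA/2J, 129S1/SvImJ or C57BL/6J. Its difference nevertheless stayed between -0.46 and -0.36 over the alternatives on the log2 scale. Of the 133 called genes examined one by one, 62 were not called without 129S1/SvImJ, 42 without C57BL/6J, 39 without CBA/J and 34 without B6C3F1/J. Without the 9 arrays that stood apart 1696 genes were called, and 12 of these genes lost their call (Prg4, Plin4, Slc27a1, Nsdhl, Irs2, Agt, C4b, Hvcn1, Atp6v1a, Atp6v1d, Timp1 and Sgk1). The call was kept under every alternative except the strain as the unit by 42 genes, which were Trem2, Itgax, Ctsk, Ciart, Clec12a, Ckb, Elovl3, Slc15a5, Thbs1, Peg10, Arhgef37, Rbp7, Insig2, Sesn2, Atf3, Hlf, Per3, Arntl, Retn, Nampt, Klf4, Tm4sf19, Gla, Mertk, Eng, Acta1, Zc3h4, Steap3, Slc29a3, Rflnb, H1f2, Als2cl, Strip2, Usp2, Itgae, Plpp1, Gprin3, Tmem140, Adamts4, Per2, Nr1d2 and Tfeb.

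Clock genes had the largest share of called members among the 51 gene lists, which were chosen with earlier results of these data known. Of 17 measured clock genes, 8 had a more positive and 2 a more negative response in the deeply restricted strains (3.77% and 2.9% of all genes). In all 10 both deeply restricted strains lay beyond the 4 mildly restricted strains, as in 68.2% of all called genes (4.55% of all genes were called and so placed). The median CR effect of the list was 0.39 in the deeply and 0.13 in the mildly restricted strains, against 0.01 and 0.02 over all genes. The genes that were more positive encode repressors of the BMAL1 and CLOCK pair (Ciart, Per2, Per3, Bhlhe41, Nr1d2) and the D-box binding factors Dbp, Tef and Hlf. The genes that were more negative were Arntl, which encodes BMAL1, and Clock. The counts were 8 and 2 again without C57BL/6J, 5 and 1 without 129S1/SvImJ, and 9 and 2 without the 9 arrays that stood apart.

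BMAL1 and CLOCK bind the E-box CACGTG, and Dbp, Tef and Hlf bind D-boxes. The 300 bases around each start site (250 before and 50 after, from RefSeq on GRCm38.p6) were therefore searched for CACGTG, which reads the same on both strands, and for the D-box form TTATGTAA on either strand (TTACATAA on the other), and the first start site of each called gene with a match there is shown with the matches in capitals. The windows are Ciart at chr3:95882179-95882478 and Bhlhe41 at chr6:145865371-145865670, both on the minus strand, Tef at chr15:81802423-81802722 on the plus strand, and Per3 at chr4:151044616-151044915 on the minus strand.
Ciart: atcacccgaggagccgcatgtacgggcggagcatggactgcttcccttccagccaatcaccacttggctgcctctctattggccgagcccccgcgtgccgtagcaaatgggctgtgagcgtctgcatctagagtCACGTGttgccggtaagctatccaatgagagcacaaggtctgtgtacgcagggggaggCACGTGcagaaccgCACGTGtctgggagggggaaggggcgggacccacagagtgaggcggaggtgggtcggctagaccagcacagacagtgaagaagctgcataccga
Bhlhe41: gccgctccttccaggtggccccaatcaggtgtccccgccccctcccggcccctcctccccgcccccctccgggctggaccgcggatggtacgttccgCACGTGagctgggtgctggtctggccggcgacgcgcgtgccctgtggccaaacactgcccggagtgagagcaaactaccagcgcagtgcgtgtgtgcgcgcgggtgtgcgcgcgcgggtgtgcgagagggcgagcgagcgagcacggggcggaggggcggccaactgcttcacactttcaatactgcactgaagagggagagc
Tef: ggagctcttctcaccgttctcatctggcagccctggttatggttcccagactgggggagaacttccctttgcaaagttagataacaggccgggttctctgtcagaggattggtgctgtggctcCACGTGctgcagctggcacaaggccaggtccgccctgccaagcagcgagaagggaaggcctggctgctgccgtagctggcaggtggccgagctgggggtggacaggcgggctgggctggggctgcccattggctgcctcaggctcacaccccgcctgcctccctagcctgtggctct
Per3: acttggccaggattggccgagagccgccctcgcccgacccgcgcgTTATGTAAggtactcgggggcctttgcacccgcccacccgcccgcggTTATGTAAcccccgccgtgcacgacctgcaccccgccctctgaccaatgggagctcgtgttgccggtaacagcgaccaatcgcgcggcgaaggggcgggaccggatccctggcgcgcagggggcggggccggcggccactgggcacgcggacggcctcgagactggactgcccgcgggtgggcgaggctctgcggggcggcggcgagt
The Ciart window held 3 E-boxes, beginning at positions -116, -58 and -44 from the start site, the Bhlhe41 window held 1 at -153 and the Tef window 1 at -127. Another Tef start site, with its window at chr15:81811164-81811463, held 1 at -138. The Per3 window held 2 D-boxes, at -205 and -158. An E-box stood near 3 of the 9 called clock genes with a window and near 2 of the 6 clock genes that were not called, the same share, and near 8.09% of all 27025 genes. The D-box form stood near 1 of the 9 and 0 of the 6, and near 1.11% of all genes. A match describes these letters only, and binding was not measured.

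Ciart had the largest clock difference. Its lowest, median and highest signals were 6.97, 7.71 and 8.66 in CR mice of 129S1/SvImJ, against 5.51, 6.40 and 7.69 in their controls. In C57BL/6J the Ciart signals were 6.69, 6.98 and 7.47 on CR, against 5.01, 6.16 and 7.10 on the control diet. The groups overlapped in both strains, but 7 of 8 129S1/SvImJ controls and 6 of 8 C57BL/6J controls lay below every CR mouse of their strain. In C3H/HeJ, Ciart read 6.39, 6.83 and 7.11 on CR, against 6.15, 6.89 and 7.21 in controls, and in CBA/J it read 5.91, 6.60 and 6.83 on CR, against 6.56, 6.78 and 7.09 in controls. DBA/2J had 6.18, 6.74 and 7.15 on CR, against 5.11, 6.60 and 7.15 in controls. B6C3F1/J had 6.57, 6.95 and 7.17 on CR, against 5.81, 6.63 and 7.44 in controls. All 4 mildly restricted strains thus overlapped broadly, and the highest median was that of the CR mice of 129S1/SvImJ. The Ciart effect was 1.10 in deeply and 0.04 in mildly restricted strains, a difference of 1.06 (SE 0.19, 95% interval 0.68 to 1.43, adjusted p = 5.23e-05).

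Per3, a period gene, separated the diets fully in 129S1/SvImJ. There the lowest, median and highest signals were 9.54, 9.69 and 9.78 on CR, against 8.14, 8.56 and 8.81 on the control diet, with no overlap. In C57BL/6J Per3 read 8.85, 9.57 and 9.78 on CR, against 8.17, 8.76 and 9.21 on the control diet, and 7 of 8 CR mice lay above every control. Its effect was 0.57 in B6C3F1/J, where 7 of 8 CR mice again exceeded all controls (medians 9.20 and 8.53), but only 0.23 in C3H/HeJ, 0.07 in CBA/J and 0.12 in DBA/2J. The difference was 0.71 (SE 0.10, adjusted p = 5.42e-08). Dbp separated fully in 129S1/SvImJ, from 10.13 to 10.65 on CR and from 8.45 to 9.73 in controls, and overlapped in C57BL/6J, with medians of 9.72 on CR and 9.11 in controls. Dbp also separated fully in B6C3F1/J, with medians of 10.11 on CR and 9.40 in controls, so the separation of Dbp did not belong to the deeply restricted strains alone. Its difference was 0.80 (SE 0.15, adjusted p = 9.50e-05) and was not called without 129S1/SvImJ.

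Arntl moved the other way. The lowest, median and highest Arntl signals were 6.14, 6.33 and 6.51 on CR in 129S1/SvImJ, against 7.03, 7.30 and 8.08 in controls, and all CR mice lay below all controls. In C57BL/6J Arntl read 6.68, 6.96 and 7.54 on CR, against 6.97, 7.79 and 8.73 in controls, and 6 of 8 CR mice lay below every control. In B6C3F1/J the groups also separated, with medians of 6.68 on CR and 7.26 in controls, while the medians nearly coincided in C3H/HeJ (6.61 on CR, 6.58 in controls) and CBA/J (6.47 on CR, 6.49 in controls). The Arntl effect was -0.98 in deeply and -0.28 in mildly restricted strains, and the difference was -0.71 (SE 0.13, adjusted p = 5.73e-05). For Arntl the sets of strains differed by 0.75 on the control diet and by 0.04 on CR, so that the gap lay in the control mice. Per3 differed by -0.24 on the control diet and 0.47 on CR, with part of its gap in each diet.

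**Figure D2:**
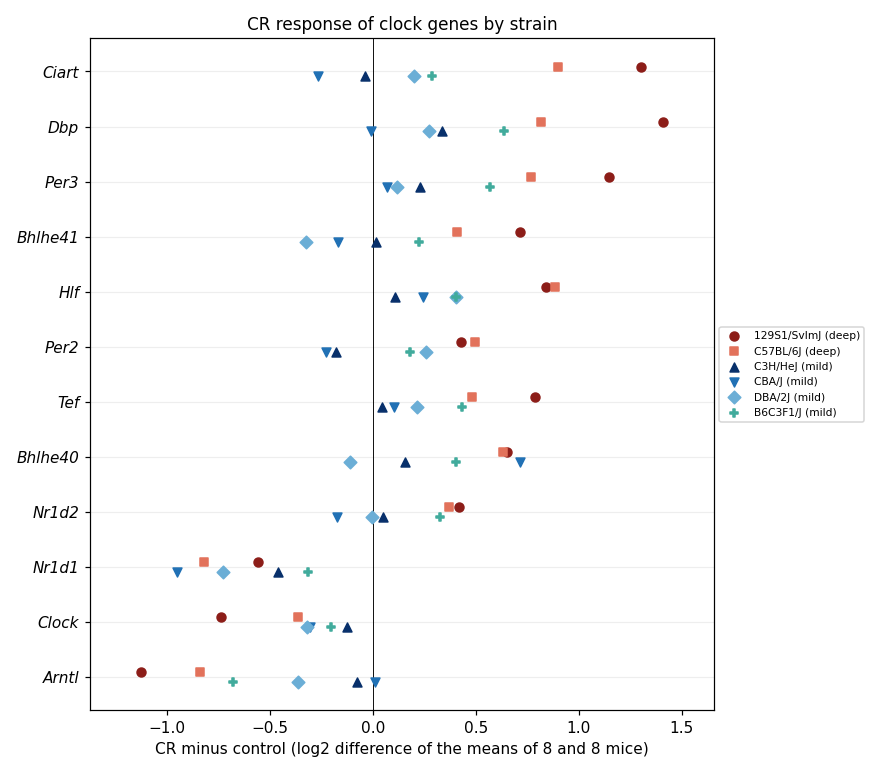
CR effect (CR minus control, log2) of clock genes in each strain on the horizontal axis, with 1 gene a row and 1 point for each of the 6 strains, reddish for the deeply restricted strains. For Ciart, Dbp, Per3 and Hlf both deeply restricted strains lie right of the mildly restricted strains (1.30 and 0.90 for Ciart), for Arntl they lie left of them (-1.13 and -0.84), and the Nr1d1 points of both sets are mixed.

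The other called clock genes followed with smaller differences. Hlf had effects of 0.84 in 129S1/SvImJ and 0.88 in C57BL/6J and of 0.11 to 0.40 in the mildly restricted strains, a difference of 0.57 (SE 0.07, adjusted p = 4.51e-09). Bhlhe41 differed by 0.62, Per2 by 0.46, Tef by 0.44, Nr1d2 by 0.35 and Clock by -0.31 (SE 0.06 to 0.19, adjusted p = 5.73e-05 to 0.0265). Of these, Per2 and Nr1d2 were called without either deeply restricted strain, while Bhlhe41, Tef and Clock were not called without 129S1/SvImJ. The Rev-erb gene Nr1d1, which encodes a repressor of Arntl, had an effect of -0.69 in deeply and -0.61 in mildly restricted strains, and the difference of -0.08 (95% interval -0.33 to 0.18) did not pass the test. Bhlhe40 differed by 0.35 (adjusted p = 0.276). Usp2, a deubiquitinase gene that is rhythmic in many mouse tissues and was not on the list, had effects of 1.35 and 1.22 in the deeply restricted strains and of 0.31 to 0.65 in the mildly restricted strains (difference 0.80, SE 0.13, adjusted p = 5.55e-06). The corresponding BALB/cJ effects were -0.49 for Ciart, -0.05 for Dbp, -0.27 for Per3 and 0.24 for Arntl.

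Macrophage genes fell on CR in both sets of strains, and several of them fell less in the deeply restricted strains. Of 17 measured genes of lipid-associated macrophages, 8 had a more positive difference and 0 a more negative one (3.77% and 2.9% of all genes). At an unadjusted limma p under 0.05 the counts were 10 and 1, and 17.7% of all genes passed that cutoff in either direction. The list had a median effect of -0.24 in deeply and -0.67 in mildly restricted strains. By strain its median was -0.34 in 129S1/SvImJ and -0.41 in C57BL/6J. In the mildly restricted strains it ran from -0.91 in CBA/J to -0.16 in DBA/2J, which fell least of the 6 strains. Of the 23 measured macrophage markers, 19 fell on CR in the deeply and 22 in the mildly restricted strains, with median effects of -0.64 and -0.94. A more positive difference was called in 4 of them and a more negative one in 0. At an unadjusted limma p under 0.05 these counts were 12 and 0. DBA/2J again fell least of the 6 strains, with a median of -0.33, against -0.72 in 129S1/SvImJ and -0.64 in C57BL/6J. Of 30 measured lysosome and proton pump genes, 16 had a more positive difference and 0 a more negative one (17 and 1 at an unadjusted limma p under 0.05), with median effects of -0.02 and -0.11. Both deeply restricted strains lay beyond all 4 mildly restricted strains in 2 of the 8 lipid-associated calls and 2 of the 4 macrophage marker calls. The same held for 9 of the 16 lysosome calls, against 68.2% of all called genes.

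Trem2, a lipid-sensing receptor of macrophages, had the largest positive difference of all called genes beyond the mildly restricted strains. Its lowest, median and highest signals were 9.64, 9.82 and 10.004 on CR in 129S1/SvImJ, against 9.33, 9.80 and 9.98 in controls. In C57BL/6J Trem2 read 7.31, 7.50 and 7.73 on CR, against 7.51, 8.11 and 8.42 in controls. The 129S1/SvImJ groups lay on top of each other, and in C57BL/6J 6 of 8 controls lay above every CR mouse. In CBA/J Trem2 read 7.49, 7.67 and 8.09 on CR, against 9.65, 9.88 and 10.73 in controls, and in B6C3F1/J 7.61, 7.78 and 7.93 on CR, against 9.36, 10.03 and 10.80 in controls. C3H/HeJ had 7.90, 8.44 and 8.79 on CR, against 8.77, 9.48 and 10.79 in controls, and DBA/2J had 7.80, 8.00 and 8.35 on CR, against 7.68, 8.87 and 9.63 in controls. CR and control mice separated fully in CBA/J and B6C3F1/J and overlapped in the other 2 mildly restricted strains. The effect was -0.21 in deeply and -1.64 in mildly restricted strains, a difference of 1.43 (SE 0.15, 95% interval 1.14 to 1.73, adjusted p = 9.80e-12). The mildly restricted strains differed among themselves, from -0.78 in DBA/2J to -2.33 in B6C3F1/J (adjusted p = 2.3e-06). The CR level of 129S1/SvImJ, with a median of 9.82, was far above that of every other CR group, whose medians lay between 7.50 and 8.44, and probes that lie over sequence differences between strains were not tested.

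Itgax, which encodes the CD11c integrin of tissue macrophages and dendritic cells, was lower on CR in the mean of every strain of the comparison. In 129S1/SvImJ the lowest, median and highest Itgax signals were 7.03, 7.40 and 7.65 on CR, against 7.39, 8.09 and 8.87 in controls. In C57BL/6J Itgax read 6.38, 6.80 and 7.44 on CR, against 6.92, 7.92 and 8.38 in controls. The mildly restricted controls stood higher, with medians of 9.82 in C3H/HeJ, 9.66 in CBA/J and 10.28 in B6C3F1/J but 8.25 in DBA/2J, and the medians of their CR mice lay between 7.12 and 7.99. The Itgax effect was -0.82 in deeply and -2.13 in mildly restricted strains (difference 1.31, SE 0.21, adjusted p = 5.55e-06), with a gap of -1.63 between the sets of strains on the control diet and of -0.32 on CR. Ctsk, the lysosomal collagenase cathepsin K, showed the same pattern, with CR medians of 7.40 and 7.67 against control medians of 7.85 and 7.94 in 129S1/SvImJ and C57BL/6J. In mildly restricted strains the Ctsk CR medians lay between 7.29 and 8.02, against control medians between 7.76 and 9.67, and the groups separated fully in all of these strains except DBA/2J. The Ctsk difference was 1.08 (SE 0.16, adjusted p = 5.94e-07), and its gap between the sets was -1.19 in controls and -0.11 on CR.

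**Figure D3:**
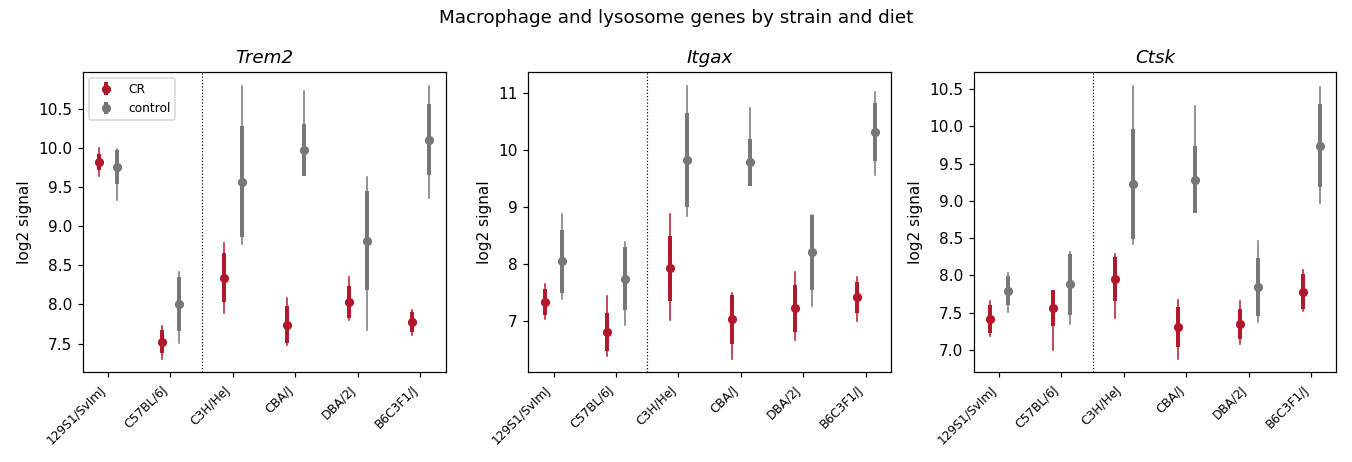
Log2 signals of Trem2, Itgax and Ctsk in CR mice (red) and control mice (grey) of each strain, as the mean of 8 mice (dot) with 1 SD either side (thick line) and the lowest to highest mouse (thin line), deeply restricted strains left of the dotted line. Control means of C3H/HeJ, CBA/J and B6C3F1/J lie highest for Itgax and Ctsk, the CR means lie in a low range shared by all 6 strains for these 2 genes, and 129S1/SvImJ is high on both diets for Trem2 (CR median 9.82).

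The other called genes of this kind had the same sign. Atp6v0d2, a proton pump subunit of macrophages and osteoclasts, fell by 1.23 in deeply and 2.66 in mildly restricted strains (difference 1.43, SE 0.35, adjusted p = 0.0038). Tm4sf19 differed by 1.24, the glycoprotein gene Gpnmb by 1.03, the lysosomal acid lipase gene Lipa by 0.49 and the tetraspanin gene Cd9 by 0.48 (SE 0.13 to 0.25, adjusted p = 4.19e-05 to 0.0131). Atp6v0d2, Gpnmb and Cd9 were not called without C57BL/6J, and Lipa was not called without 129S1/SvImJ. Clec12a, an inhibitory lectin of myeloid cells, fell by 0.69 in deeply and 1.64 in mildly restricted strains (difference 0.94, SE 0.17). Among the macrophage markers, Clec7a differed by 0.66 and the protease gene Ctss by 0.62, and neither was called without 129S1/SvImJ. Mertk, a receptor for the uptake of dead cells, rose by 0.35 in the deeply restricted strains and fell by 0.23 in the mildly restricted strains (difference 0.58, SE 0.10, adjusted p = 4.29e-05).

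The broad markers Cd68, Adgre1 and Mpeg1 did not pass the adjusted test, although their differences were positive too. Cd68 changed by -1.07 in deeply and -1.49 in mildly restricted strains (difference 0.42, adjusted p = 0.146), Adgre1, which encodes F4/80, by -0.79 and -1.03 (difference 0.24, adjusted p = 0.478), and Mpeg1 by -1.18 and -1.58 (difference 0.40, adjusted p = 0.153). The mean signal of the 23 macrophage markers ranged from 7.68 to 8.75 in deeply restricted CR mice, against 8.36 to 9.15 in their controls, and from 7.59 to 9.35 in mildly restricted CR mice, against 8.16 to 10.21 in their controls. The medians of these means were 8.21 and 8.85 in deeply restricted CR and control mice, and 8.38 and 9.31 in mildly restricted CR and control mice, so the mildly restricted controls were the highest of the 4. The part of this level in the differences of single genes was not tested. The count of macrophage markers called moved with the strains taken as mild, to 13 without DBA/2J, 9 without C3H/HeJ and 2 without B6C3F1/J, and it was 2 without 129S1/SvImJ, 2 with BALB/cJ added to the mildly restricted strains, 11 on the linear signal and 7 with array weights. The 8 lipid-associated genes became 3 without B6C3F1/J, 5 without C57BL/6J, and 3 more positive and 1 more negative with BALB/cJ added.

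The lysosome genes were of a mixed kind. The hydrolase genes Gla, Gusb, Hexa and Ctsa had effects of -0.25 to -0.06 in deeply and of -0.65 to -0.45 in mildly restricted strains, with differences of 0.58, 0.46, 0.31 and 0.20 (adjusted p = 4.81e-05 to 0.0116). The membrane protein gene Lamp1 differed by 0.11 (adjusted p = 0.0180). Of the 6 listed genes of the pump's V1 domain, a group formed after their values were seen, 5 rose in the deeply and 3 in the mildly restricted strains, and 4 had a more positive difference. Atp6v1d rose by 0.61 in deeply and 0.27 in mildly restricted strains, Atp6v1c1 had effects of 0.34 and 0.05 and Atp6v1a of 0.33 and 0.03 (differences 0.34, 0.29 and 0.30, adjusted p = 0.0077 to 0.0305). Mcoln1, a lysosomal cation channel, rose by 0.28 and 0.10 (difference 0.18, adjusted p = 1.15e-04), and Tfeb, a transcription factor for lysosome genes, had effects of 0.20 and -0.04 (difference 0.25, SE 0.05, adjusted p = 6.80e-04). Of the 30 genes, the more positive ones became 7 without CBA/J, 8 without 129S1/SvImJ, 8 without B6C3F1/J, 9 without C57BL/6J and 9 with BALB/cJ added to the mildly restricted strains, and each of the last 3 alternatives added 1 more negative gene.

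Genes of fatty acid synthesis rose on CR in both sets of strains, and its elongases went apart. Of 19 measured genes, 12 rose in the deeply and 15 in the mildly restricted strains. In 4 of them the difference was more positive (Elovl6, Scd2, Fasn and Tecr) and in 1, Elovl3, more negative, against 3.77% and 2.9% of all genes. The list medians of the effect were 0.47 and 0.78.

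Elovl3, an elongase of very long chain fatty acids, had the most negative difference of all called genes. Its lowest, median and highest signals were 5.19, 6.37 and 7.42 on CR in 129S1/SvImJ, against 5.16, 6.01 and 7.20 in controls. In C57BL/6J Elovl3 read 4.97, 5.96 and 6.59 on CR, against 5.17, 5.30 and 7.37 in controls. Both deeply restricted strains thus stayed low on both diets with wide overlap. In C3H/HeJ Elovl3 read 7.67, 10.44 and 11.30 on CR, against 5.54, 6.74 and 8.14 in controls, and in CBA/J 9.32, 10.68 and 11.14 on CR, against 5.93, 8.07 and 9.19 in controls. B6C3F1/J had 7.80, 8.93 and 9.66 on CR, against 5.22, 5.54 and 7.09 in controls, and DBA/2J had 6.83, 9.04 and 9.56 on CR, against 5.80, 7.05 and 10.37 in controls. CR mice lay above all controls in CBA/J and B6C3F1/J, in 7 of 8 mice in C3H/HeJ, and overlapped with them in DBA/2J. The Elovl3 effect was 0.25 in deeply and 2.70 in mildly restricted strains, a difference of -2.45 (SE 0.44, 95% interval -3.33 to -1.58, adjusted p = 4.94e-05). The gap between the sets was -1.01 on the control diet and -3.46 on CR, so for Elovl3 the CR mice were farther apart. Slc15a5, a member of a peptide transporter family, followed Elovl3, with effects of 0.09 and 0.27 in the deeply restricted strains and of 0.57 to 3.02 in the mildly restricted strains (difference -1.58, SE 0.27, adjusted p = 1.43e-05).

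Scd2, a stearoyl-CoA desaturase, went the other way. Scd2 signals in 129S1/SvImJ were 10.62, 12.39 and 12.80 on CR (lowest, median and highest), against 8.94, 9.39 and 9.84 in controls. In C57BL/6J Scd2 read 11.31, 12.02 and 12.62 on CR, against 8.80, 9.65 and 10.44 in controls. There was no overlap in either strain, nor in C3H/HeJ, with 11.99, 12.57 and 12.71 on CR, against 10.003, 10.70 and 11.85 in controls, or in B6C3F1/J, with 12.18, 12.73 and 12.79 on CR, against 10.20, 10.57 and 11.20 in controls. Scd2 overlapped in CBA/J, with medians of 11.99 on CR and 11.64 in controls, and in DBA/2J, with 11.98 and 11.35. CR medians of the 6 strains lay between 11.98 and 12.73, whereas the control medians of 129S1/SvImJ and C57BL/6J were the lowest. The Scd2 effect was 2.46 in deeply and 1.24 in mildly restricted strains (difference 1.22, SE 0.25, adjusted p = 3.73e-04), and the gap between the sets was -1.54 in controls and -0.32 on CR.

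**Figure D4:**
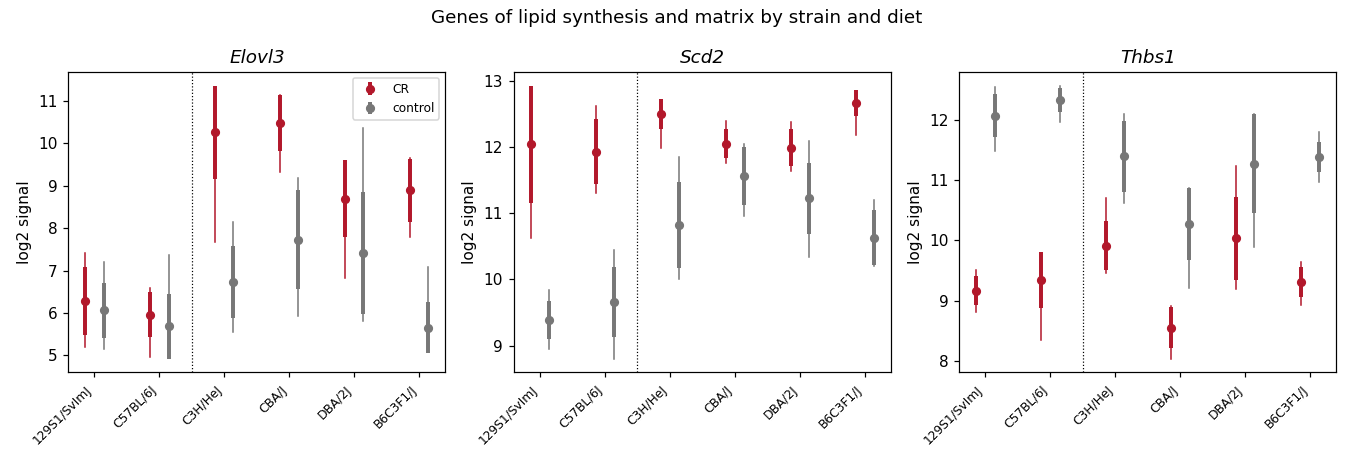
Log2 signals of Elovl3, Scd2 and Thbs1 in CR mice (red) and control mice (grey) of each strain, as the mean of 8 mice (dot) with 1 SD either side (thick line) and the lowest to highest mouse (thin line), deeply restricted strains left of the dotted line. Elovl3 is low on both diets in 129S1/SvImJ and C57BL/6J, and the control means of these strains are the lowest of the 6 for Scd2 and the highest for Thbs1.

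Elovl6, the elongase from palmitate to stearate, rose by 3.28 in deeply and 1.91 in mildly restricted strains (difference 1.36, SE 0.31, adjusted p = 0.0017), but its effect in B6C3F1/J, 3.47, was as large as in 129S1/SvImJ (3.17) and C57BL/6J (3.39). Elovl6 was not called without C57BL/6J, and on the linear signal its difference was negative. The fatty acid synthase gene Fasn rose by 1.31 and 0.76 (difference 0.55, SE 0.13, adjusted p = 0.0039) and Tecr, a reductase of the elongation cycle, by 0.46 and 0.26 (difference 0.20, adjusted p = 0.0113). The ATP citrate lyase gene Acly rose by 2.68 and 2.10, and its difference of 0.58 (95% interval 0.00 to 1.16) did not pass the test (adjusted p = 0.280). Insig2, which holds the lipogenic factor SREBP in the endoplasmic reticulum, had effects of -0.27 and 0.06 (difference -0.33, SE 0.06, adjusted p = 8.90e-05). Hmgcs1 of cholesterol synthesis fell by 0.64 and 0.38 (difference -0.27, adjusted p = 0.0321), while Nsdhl and Fdft1 of the same pathway rose, with differences of 0.52 and 0.29 (adjusted p = 0.0284 and 0.0209). Fasn was not called without 129S1/SvImJ, Tecr and Fdft1 without C57BL/6J or DBA/2J, Hmgcs1 without C57BL/6J, and Nsdhl without either deeply restricted strain.

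Genes that assemble triacylglycerol had 3 of 14 called, all more positive (3.77% of all genes), and none of the 3 was called without 129S1/SvImJ. Gpd1, which makes glycerol 3-phosphate, rose by 0.98 in deeply and 0.61 in mildly restricted strains (difference 0.37, adjusted p = 0.0337), Dgat2, the final acyltransferase, by 0.52 and 0.23 (difference 0.29, adjusted p = 0.0102) and Lpin3 by 0.27 and 0.09 (difference 0.19, adjusted p = 0.0390). Lipolysis genes had 2 of 14 called, both more negative (2.9% of all genes). The lipase gene Pnpla2 had effects of -0.24 and 0.02 (difference -0.26, SE 0.07, adjusted p = 0.0054), and the droplet protein gene Plin4 fell by 0.55 and 0.28 (difference -0.27, adjusted p = 0.0470). For fatty acid uptake, Angptl4, an inhibitor of lipoprotein lipase, differed by -0.39, Gpihbp1, which anchors that lipase, by -0.36 and Slc27a1 by -0.30 (adjusted p = 0.0059 to 0.0417), and the lipoprotein receptor gene Vldlr by 0.35 (SE 0.08, adjusted p = 8.21e-04). Pnpla2, Angptl4 and Vldlr were not called without 129S1/SvImJ, Gpihbp1 and Slc27a1 were not called without C57BL/6J, and Plin4 lost its call without C57BL/6J or any mildly restricted strain and under quantile normalization or median centring.

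Of 18 measured genes of nutrient stress, 2 had a more positive difference (Atf3 and Sesn1) and 2 a more negative one (Sesn2 and Trib3), against 3.77% and 2.9% of all genes. Sesn2, a stress-induced inhibitor of mTORC1, had lowest, median and highest signals of 7.70, 8.25 and 8.57 on CR in 129S1/SvImJ, against 9.57, 9.93 and 10.27 in controls. In C57BL/6J Sesn2 read 7.84, 8.26 and 8.58 on CR, against 8.96, 9.22 and 9.85 in controls. No CR mouse reached a control in either strain. In the mildly restricted strains the Sesn2 CR medians lay between 8.04 and 8.33, against control medians between 8.49 and 9.17, and the groups overlapped in all 4, with 7 of 8 CR mice below every control in C3H/HeJ and in DBA/2J, 6 in CBA/J and 5 in B6C3F1/J. The CR medians of the 6 strains were thus closer together than their control medians. The Sesn2 effect was -1.41 in deeply and -0.61 in mildly restricted strains (difference -0.80, SE 0.12, adjusted p = 5.94e-07), with a gap of 0.76 in controls and -0.04 on CR. The effect was larger in 129S1/SvImJ (-1.73) than in C57BL/6J (-1.08, adjusted p = 0.036).

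Pdk4, the kinase that shuts down pyruvate dehydrogenase in fasting, had lowest, median and highest signals of 9.97, 10.63 and 11.33 on CR in 129S1/SvImJ, against 11.73, 11.93 and 12.22 in controls. In C57BL/6J Pdk4 read 9.19, 10.97 and 11.11 on CR, against 11.05, 11.45 and 11.86 in controls. The groups separated in 129S1/SvImJ, and 5 of 8 CR mice of C57BL/6J lay below every control. In the mildly restricted strains CR and control medians differed by less, with 11.34 and 11.64 in C3H/HeJ, 11.33 and 11.39 in CBA/J, 10.65 and 11.03 in B6C3F1/J and 11.88 and 11.99 in DBA/2J. The Pdk4 effect was -1.07 in deeply and -0.27 in mildly restricted strains (difference -0.80, SE 0.14, adjusted p = 3.24e-05), and it was not called without 129S1/SvImJ. Of 25 measured genes of pyruvate dehydrogenase and the citric acid cycle, 3 were called, all more negative (2.9% of all genes). They were the regulator genes Pdk4, Pdk2 (difference -0.29) and Pdp1, a phosphatase gene (difference -0.19). Pdk2 and Pdp1 also lost their calls without 129S1/SvImJ. The other 22 did not pass the test, with 21 of 25 genes higher on CR in each set of strains and median effects of 0.43 and 0.38.

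The pseudokinase gene Trib3 changed by -0.42 in deeply and -0.10 in mildly restricted strains (difference -0.31, adjusted p = 0.0024), and Irs2, an adaptor of the insulin receptor, by -0.85 and -0.47 (difference -0.39, adjusted p = 0.0132). Atf3, a stress-induced factor that is also high in inflamed fat, had effects of -0.70 and -1.60 (difference 0.90, SE 0.17, adjusted p = 1.11e-04), and Sesn1 differed by 0.22 (adjusted p = 0.0311). Of 20 measured glucocorticoid targets, 5 were called (6.67% of all genes), without a common sign. Tsc22d3 differed by 0.41, while Dusp1, Sgk1, Pdk4 and Angptl4 differed by -0.41, -0.40, -0.80 and -0.39, and each of these 4 lost its call without 129S1/SvImJ. The fatty acid sensor gene Ppara differed by 0.49 (adjusted p = 0.0188).

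Thbs1, the matrix glycoprotein thrombospondin 1, was lower on CR in the mean of all 6 strains, and its fall was larger in the deeply restricted strains. Its lowest, median and highest signals were 8.80, 9.25 and 9.51 on CR in 129S1/SvImJ, against 11.48, 12.13 and 12.53 in controls. In C57BL/6J Thbs1 read 8.35, 9.40 and 9.76 on CR, against 11.96, 12.39 and 12.56 in controls. The CR and control groups did not overlap in either strain. In C3H/HeJ the Thbs1 medians were 9.92 on CR and 11.56 in controls, in DBA/2J 10.06 and 11.59, in CBA/J 8.57 and 10.43 and in B6C3F1/J 9.28 and 11.36, and the groups separated fully in CBA/J and B6C3F1/J. The effect was -2.94 in deeply and -1.63 in mildly restricted strains (difference -1.31, SE 0.27, adjusted p = 4.94e-04), with a gap of 1.12 in controls and -0.20 on CR. Of 32 measured collagen and matrix genes, 2 had a more positive and 5 a more negative difference (3.77% and 2.9% of all genes), which became 4 and 2 without DBA/2J, and the list median of the difference was 0.00. Besides Thbs1, the negative ones were Thbs2 (-0.84), the cross-linking enzyme gene Lox (-0.68), elastin, Eln (-0.35), and Postn (-0.29), and the positive ones the protease inhibitor gene Timp1 (0.43) and Col15a1 (0.33), with adjusted p from 3.08e-04 to 0.0455. Thbs2, Lox and Postn were not called without 129S1/SvImJ, and Timp1 and Col15a1 were not called when the BALB/cJ arrays were left out of the model. Adamts4, a protease that cuts matrix proteoglycans, had effects of -0.84 and -0.12 (difference -0.72, SE 0.10, adjusted p = 2.58e-07), and Sfrp2, a secreted modulator of Wnt signalling, differed by -0.62 (adjusted p = 0.0224). Sfrp2 was not called without 129S1/SvImJ, and Eln was not called without C57BL/6J.

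Peg10, an imprinted gene derived from a retrotransposon, fell on CR in the deeply restricted strains and rose over the mildly restricted strains. Its lowest, median and highest signals were 7.68, 8.80 and 9.22 on CR in C57BL/6J, against 9.45, 10.35 and 10.84 in controls, and in 129S1/SvImJ 8.25, 8.93 and 9.32 on CR, against 8.56, 9.40 and 9.83 in controls. The C57BL/6J groups did not overlap, and the 129S1/SvImJ groups did. The Peg10 medians were 9.59 on CR and 9.23 in controls in C3H/HeJ, 9.71 and 9.20 in CBA/J, 9.98 and 9.60 in B6C3F1/J, and 8.58 and 8.67 in DBA/2J, so DBA/2J was the mildly restricted strain whose CR median was lower. The effect was -0.95 in deeply and 0.28 in mildly restricted strains (difference -1.23, SE 0.17, 95% interval -1.56 to -0.89, adjusted p = 1.11e-07), and it was larger in C57BL/6J (-1.50) than in 129S1/SvImJ (-0.39, adjusted p = 0.014). Of 19 measured imprinted genes, Peg10 and Zim1 were called, against 6.67% of all genes. Zim1, an imprinted zinc finger gene, had effects of -2.92 in 129S1/SvImJ, -1.49 in C57BL/6J and -1.35 to -0.67 in the mildly restricted strains (difference -1.10, SE 0.24, adjusted p = 9.94e-04), and it was not called without 129S1/SvImJ.

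Mesothelium markers had a median CR effect below 0 only in 129S1/SvImJ among the 6 strains. Of 10 measured markers, 5 had a more negative difference (2.9% of all genes) and 0 a more positive one. At an unadjusted limma p under 0.05 the counts were 8 and 0, against 17.7% of all genes in either direction. The median effect over the list was -0.62 in 129S1/SvImJ and 0.10 in C57BL/6J, against 0.26 to 0.49 in the mildly restricted strains. Gpm6a, a membrane glycoprotein gene, had lowest, median and highest signals of 6.75, 8.32 and 9.35 on CR in 129S1/SvImJ, against 8.08, 9.46 and 9.67 in controls, and of 7.37, 8.99 and 9.71 on CR in C57BL/6J, against 7.32, 9.09 and 9.95 in controls. The groups overlapped in both strains. Gpm6a differed by -0.99 (SE 0.26, adjusted p = 0.0071), Lrrn4 by -0.88, the uroplakin genes Upk3b and Upk1b by -0.84 and -0.78 and Msln, which encodes mesothelin, by -0.68 (adjusted p = 0.0024 to 0.0462). Without 129S1/SvImJ limma called 0 of the 10, and 0 had an unadjusted p under 0.05, and without C57BL/6J 8 were called. The count was 2 without B6C3F1/J, 7 without the 9 arrays that stood apart and 10 with array weights. The mean signal of the 10 markers ranged from 6.94 to 8.98 in deeply restricted CR mice, against 7.35 to 9.16 in their controls, and from 7.96 to 9.35 in mildly restricted CR mice, against 7.10 to 9.46 in their controls. How much of the pad's outer layer was in each sample was not tested.

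Other cell type lists had few called members, where 6.67% of all genes were called. Of 11 measured adipocyte markers, 2 were called, Pnpla2 and Retn, both with a more negative difference (2.9% of all genes). Eng, which encodes the endothelial TGF-beta co-receptor endoglin, was the only endothelial marker of 12 called, with effects of -0.69 in deeply and -0.17 in mildly restricted strains (difference -0.52, SE 0.09, adjusted p = 2.70e-05). Dpp4 of 8 fibroblast and progenitor markers differed by -0.58, Hdc of 8 mast cell markers by -0.23, Acta1 of 10 skeletal muscle markers by -0.89 and Alas2 of 2 red blood cell markers by -0.69 (adjusted p = 3.49e-05 to 0.0471). No member was called among 11 T cell, 9 B cell, 9 neutrophil, 9 smooth muscle, 10 testis germ cell and 15 epididymis markers. That held for limma and for the analysis of variance contrast without moderation. Of these 63, 4 had an unadjusted limma p under 0.05, against 17.7% of all genes. The epididymis markers had a median difference of 0.42, and single arrays carried high levels. Their mean signal reached 11.74 in deeply restricted CR mice but only 5.45 in their controls, and 11.57 and 10.06 in mildly restricted CR and control mice, against medians between 5.12 and 5.43 in the 4 sets. Gpx5, an epididymal glutathione peroxidase, differed by 1.41 (95% interval 0.10 to 2.72, adjusted p = 0.229), with effects of 3.94 in C57BL/6J and 2.80 in CBA/J.

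**Figure D5:**
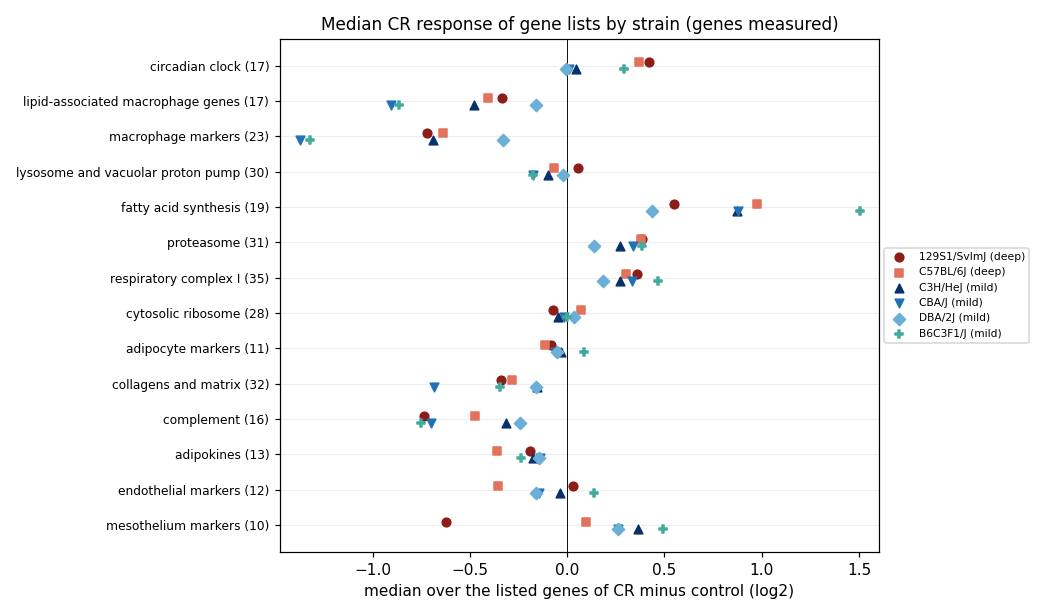
Median CR effect (CR minus control, log2) over the measured genes of 14 lists on the horizontal axis, with 1 list a row, its number of genes in brackets, and 1 point for each of the 6 strains. The deeply restricted strains lie to the right for clock genes (0.42 in 129S1/SvImJ and 0.37 in C57BL/6J), 129S1/SvImJ lies alone at -0.62 for mesothelium markers, and the strains of both sets are mixed for macrophage markers, the proteasome and complex I.

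Secreted factors and receptors gave a mixed picture. Nampt, the enzyme of NAD salvage that is also secreted, rose by 0.93 in deeply and 0.49 in mildly restricted strains (difference 0.44, SE 0.09, adjusted p = 4.27e-04), with both strain effects of the first set (0.86 and 1.01) above all 4 of the second (0.39 to 0.60). Nnmt, which methylates nicotinamide, differed by 0.81 (SE 0.13), but its effect was 1.18 in 129S1/SvImJ and 0.33 in C57BL/6J, against 0.30 in DBA/2J, and it was not called without 129S1/SvImJ. Retn, which encodes resistin, had effects of 0.06 and 0.29 (difference -0.23, SE 0.05, adjusted p = 2.36e-04) and the angiotensinogen gene Agt of -0.35 and 0.02 (difference -0.37, adjusted p = 0.0455). The leptin gene Lep fell by 0.38 and 0.65 (difference 0.27, 95% interval -0.02 to 0.57, adjusted p = 0.344) and the adiponectin gene Adipoq by 0.26 and 0.12 (difference -0.14, 95% interval -0.29 to 0.01, adjusted p = 0.330). The factor gene Klf4 fell by 0.66 and 0.22 (difference -0.44, SE 0.09, adjusted p = 4.18e-04).

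Of 26 measured cytokine, chemokine and adhesion genes, 4 had a more positive difference (Cxcl14 0.52, Il1rn 0.49, Vcam1 0.37 and Tgfb1 0.28) and 2 a more negative one (Cxcl10 -0.43 and Cxcl12 -0.31), against 3.77% and 2.9% of all genes. Of 16 measured complement genes, 1 was more positive, the receptor gene C3ar1 (0.56), and 4 more negative, against the same background, including C6 (-0.55), C4a (-0.58) and C4b (-0.54). C4a and C4b are near-identical copies that the probes may not separate. Antioxidant genes had Sod2 called with 0.24 and the plasma peroxidase gene Gpx3 with -0.49, of 23 measured (6.67% of all genes were called). All of these had adjusted p from 1.73e-04 to 0.0280, and each of them was lost without at least 1 of the deeply restricted strains.

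The large lists of the mitochondrion and of protein turnover had few called differences, where 6.67% of all genes were called. Of 35 measured genes of respiratory complex I, 33 rose in deeply and 34 in mildly restricted strains, with median effects of 0.30 and 0.32, and their differences lay between -0.21 and 0.18 with 1 called, Ndufa7 (-0.21). Complexes III and IV and the ATP synthase had 2 of 35 called, Uqcr11 (-0.25) and Atp5e (-0.21), the mitochondrial ribosome 1 of 40, Mrpl48 (0.27), and the proteasome 1 of 31, Psmc5 (0.19). The proteasome had all 31 genes higher on CR in each set, with median effects of 0.36 and 0.28. At an unadjusted limma p under 0.05, 11 proteasome genes had a more positive difference and 0 a more negative one. These counts were 9 and 0 for the mitochondrial ribosome, 3 and 2 for complex I and 0 and 2 for complexes III and IV and the ATP synthase. No gene was called among 28 cytosolic ribosome, 16 branched-chain amino acid, 16 peroxisome, 6 pentose phosphate and 27 interferon-stimulated genes. That held for limma and for the analysis of variance contrast. Of these 93 genes, 14 had an unadjusted limma p under 0.05, against 17.7% of all genes. A small difference in these lists is not shown to be absent: the median standard error of a difference over all genes was 0.08.

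A list of genes had been chosen for qPCR in fat as markers of CR, and 10 of them were measured here. The study picked them from its arrays, preferring genes changed in more strains and by a large fold change in most strains. A response in both sets of strains was thus largely fixed by that choice. In each set 8 of the 10 were higher and 2 lower on CR, with median effects of 1.28 in deeply and 1.05 in mildly restricted strains. Nampt was the only member whose difference passed the test. Acss2 differed by 0.63 (95% interval 0.15 to 1.12), Me1 by 0.32 (-0.03 to 0.67), Acaca by 0.31 (-0.09 to 0.70), Parm1 by 0.27 (-0.19 to 0.72), Ndufs4 by 0.18 (0.02 to 0.34), Slc2a4 by 0.13 (-0.13 to 0.39) and Gpd2 by 0.07 (-0.36 to 0.51), all with an adjusted p above 0.05 (0.113 to 0.940). For the 2 genes that fell, Cd68 was given above and Ifi27l2a changed by -1.68 in deeply and -1.31 in mildly restricted strains (difference -0.38, 95% interval -0.88 to 0.12).

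Among the 74 genes that moved in opposite directions (0.371% of all genes), 36 rose in deeply and fell in mildly restricted strains and 38 did the reverse. Steap3, an iron reductase gene, changed by 0.30 and -0.22 (difference 0.52, SE 0.08, adjusted p = 4.71e-06), the lysosomal nucleoside transporter gene Slc29a3 by 0.26 and -0.31 (difference 0.57, SE 0.09) and Zc3h4 by 0.18 and -0.09 (difference 0.28, SE 0.04, adjusted p = 2.11e-06). Ccdc6 and Fam83a differed by 0.35 and 0.57. In the other direction, Rflnb, a regulator of the actin-binding filamins, changed by -0.39 and 0.27 (difference -0.66, SE 0.09, adjusted p = 1.08e-07), the linker histone gene H1f2 by -0.26 and 0.26, Als2cl by -0.38 and 0.15 and Edn1, which encodes endothelin 1, by -0.48 and 0.14. The strains within a set spread, and Rflnb effects ranged from -0.06 to 0.64 among the mildly restricted strains.

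The remaining genes with the largest differences belonged to no list. Aqp11, an aquaporin of intracellular membranes, had effects of 2.37 in 129S1/SvImJ, 0.76 in C57BL/6J and 0.08 to 0.47 in the mildly restricted strains (difference 1.32, SE 0.22, adjusted p = 1.59e-05), and its BALB/cJ effect was 1.52. The creatine kinase gene Ckb differed by 0.92 (SE 0.15), with effects of 0.08 and 0.46 against -1.08 to -0.22. Klrb1a, a lectin gene of natural killer cells, and Egr2 differed by 1.04 and 1.02 (adjusted p = 0.0144 and 0.0265). On the negative side, Arhgef37, a guanine exchange factor gene, had effects of -1.55 and -1.09 in the deeply restricted strains and of -0.67 to 0.13 in the mildly restricted strains (difference -1.03, SE 0.09, adjusted p = 1.23e-14), the smallest adjusted p of all genes. Rbp7, a retinoid-binding protein gene, differed by -0.99 (SE 0.16, adjusted p = 4.43e-06), the pantetheinase gene Vnn1 by -0.91 and the lubricin gene Prg4 by -1.04 (adjusted p = 0.0027 and 0.0319). Aqp11, Vnn1, Prg4 and Egr2 were not called without 129S1/SvImJ, and Klrb1a and Egr2 were not called without C57BL/6J, without B6C3F1/J or with BALB/cJ added to the mildly restricted strains.

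Strip2 had the smallest p-value when the strain was the unit, and its effects were 1.20 and 1.13 in the deeply restricted strains and 0.40 to 0.52 in the mildly restricted strains. Itgae, an integrin gene, had effects of 0.73 and 0.77, against 0.02 to 0.35, and the proton channel gene Hvcn1 1.48 and 1.19, against 0.67 to 0.88. On the negative side, Plpp1, a lipid phosphatase gene, had -0.83 and -0.79, against -0.21 to -0.05, Gprin3 -1.20 and -1.34, against -0.53 to -0.15, and Tmem140 -0.85 and -0.85, against -0.35 to -0.26. These genes, with Usp2, Ciart, Adamts4 and Thbs1, had the 5 smallest p-values in each direction there, and none of them passed adjustment.

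BALB/cJ, whose CR mice received 22.58% less food than their controls, was not part of the contrast that found these genes, though its arrays entered the estimate of the spread. Its CR effect lay on the side of the mildly restricted strains, nearer to their mean than to that of the deeply restricted strains, for 642 of the 907 genes that were called and placed beyond (70.8%), against 54.4% of all genes. For 873 of all 1330 called genes (65.6%) the same was true. The study found no significant loss of body weight on CR in BALB/cJ. A weak effect lies on the mild side for genes that changed further, or were called only, in the deeply restricted strains (340 and 483 of the 1330). These shares thus do not tell a mild response from a weak one. The BALB/cJ effects were 0.01 for Trem2 and for Itgax, nearer to the deeply restricted mean for both, and 1.73 for Elovl3, 1.43 for Scd2, -0.48 for Sesn2, 0.00 for Pdk4, -0.66 for Thbs1 and 0.59 for Peg10. The macrophage markers had a median effect of -0.07 in BALB/cJ, against -0.64 in the deeply and -0.94 in the mildly restricted strains.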

How the data were processed

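RNA of epididymal fat from 112 mice, 1 mouse an array, had been hybridised to Affymetrix Mouse Gene 1.0 ST arrays. The deposited values are log2 signals that the authors made from the scanned arrays by RMA in Affymetrix Expression Console, named in the submitters' processing notes (software version not given in the sources used here), and they were used without further normalization. The array medians lay between 6.72 and 6.86. Of 35556 probe sets, 21789 have 1 gene in the platform annotation, 1621 have several and 12146 are unlisted, and only the first were used. The brightest probe set stood for each of the 999 genes with several, which left 19938 genes. Probes that lie over sequence differences between strains were not removed, and saturation and background could not be read from these values.

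A linear model with 14 groups of strain and diet was fitted with limma 3.58.1 in R 4.3.3, and the contrast was the mean CR effect of 129S1/SvImJ and C57BL/6J minus that of CBA/J, C3H/HeJ, DBA/2J and B6C3F1/J. Genes were called at a p under 0.05 after Benjamini-Hochberg adjustment over all genes. The p-values measure the spread between mice within these strains. The model was also fitted to 1 effect per strain. Code was tested on simulated data. Alternatives left out each strain in turn, the BALB/cJ arrays or the arrays that stood apart, added BALB/cJ to the mildly restricted strains, and changed the probe set rule, filter, normalization, array weights, moderation, scale and replicate block. Leaving out single mice was not run, since each group held 8. Python 3.11.15 with pandas 2.3.3 and matplotlib 3.10.9 made the summaries and plots.

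The comparison and the 51 gene lists (37 of pathways and 14 of cell types, 847 of 921 genes measured) were chosen with earlier results of these data known. Named genes were, by rule, the 10 most positive and 10 most negative called differences with both deeply restricted strains beyond the mildly restricted strains, up to 4 members of each list by smallest p, the 5 smallest p in each direction among genes with opposite called responses, the 10 measured qPCR markers of the study, and the 5 smallest p in each direction with the strain as the unit. Dbp, Per2, Bhlhe41, Tef, Nr1d2, Clock, Nr1d1, Bhlhe40, Gpnmb, Lipa, Cd9, Hexa, Ctsa, Atp6v1a, Atp6v1c1, Atp6v1d, Tfeb, Lamp1, Adgre1, Mpeg1, Adipoq, Lep, Acly, Tecr, Postn, Timp1, Col15a1, Upk1b, Sgk1, Cxcl10, Il1rn and Gpx5 were added after their values were seen.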

Additional observations from a re-analysis of the deposited data

Results flagged for a closer look

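Signals of 14 genes in the 8 mice of each strain and diet gave 168 groups, and in 24 values the highest or lowest mouse lay farther from its nearest neighbour, as a share of the group's range, than Dixon's 95% critical value. Chance alone gives such a gap in about 1 in 20 groups. C57BL/6J CR mouse 2, whose array is among the 9 that stood apart, was the lowest of its group for Per3 (8.85, others 9.48 to 9.78), Ctsk (7.00), Pdk4 (9.19), Thbs1 (8.35) and Peg10 (7.68) and the highest for Arntl (7.54). CBA/J CR mouse 5, also on an array that stood apart, was the lowest for Per3 (8.73), Peg10 (8.66) and Gpm6a (7.79). CBA/J control mouse 2 was the highest of its group for Trem2 (10.73), Itgax (10.72), Ctsk (10.27) and Arntl (6.95) and the lowest for Per3 (8.45). Its array did not stand apart.

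C3H/HeJ CR mouse 4 was the lowest of its group for Elovl3 (7.67, others 10.32 to 11.30) and Scd2 (11.99). B6C3F1/J CR mouse 8 was the lowest for Scd2 (12.18) and Peg10 (8.80). Elovl3 was high in C57BL/6J control mouse 2 (7.37) and in B6C3F1/J control mouse 2 (7.09). Per3 was low in C3H/HeJ CR mouse 7 (8.98), Arntl was low in B6C3F1/J CR mouse 7 (6.17), Sesn2 was low in B6C3F1/J control mouse 7 (8.26) and Gpm6a was low in CBA/J control mouse 4 (7.42).

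The CR response itself differed between the sets of strains in 1330 genes, and some of the leading genes also differed within a set (limma F or contrast, adjusted over all genes). Among the 4 mildly restricted strains the effects ranged from -2.33 to -0.78 for Trem2 (adjusted p = 2.3e-06), from -2.90 to -0.98 for Itgax (adjusted p = 9.7e-05), from -1.97 to -0.50 for Ctsk (adjusted p = 3.5e-05) and from 0.49 to 2.03 for Scd2 (adjusted p = 0.013). Between 129S1/SvImJ and C57BL/6J the effects were -1.73 and -1.08 for Sesn2 (adjusted p = 0.036) and -0.39 and -1.50 for Peg10 (adjusted p = 0.014).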

How the results depend on the processing

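The number of genes with a different response stayed within 1.5 times the 1330 found under 16 of the 19 alternatives run (947 without B6C3F1/J to 1696 without the 9 arrays that stood apart). It was 884 without CBA/J, 2729 with array weights and 0 with the strain as the unit (992 at an unadjusted limma p under 0.05). More positive differences numbered 404 without CBA/J (45.7% of those called, against 56.5%), 1596 with array weights and 0 with the strain as the unit, and more negative ones 1133 with array weights and 0 with the strain as the unit. Called genes with both deeply restricted strains beyond the mildly restricted strains numbered 1361 without DBA/2J, 1647 with array weights and 0 with the strain as the unit. The cause was not tested. Of the 1330 genes, 632 (47.5%) were called without 129S1/SvImJ, 649 (48.8%) without C57BL/6J and 792 (59.5%) without CBA/J.

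Same-numbered CR and control mice deviated together in 14 of 48 pairs (r over 0.1, range -0.363 to 0.450). In C3H/HeJ these were 5 of 8 pairs, with a median r of 0.306, against -0.019 for mice of other numbers. In the other strains they were 1 to 3 of 8, with medians from -0.203 in DBA/2J to 0.066 in C57BL/6J. Whether the numbers pair mice in C3H/HeJ was not tested. With the replicate block 1414 genes were called, 1253 of them shared (94.2%), and Uqcr11 and Agt were no longer called.

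Among the 150 genes tested for the text, differences changed sign on the linear signal for Elovl6 (-838.045), Nsdhl (-5.748), Parm1 (-426.833), Hvcn1 (-1.479) and Acly (-825.178). Without 129S1/SvImJ they changed sign for Gpd2 (-0.232), Parm1 (-0.008), Slc2a4 (-0.203) and Col15a1 (-0.065), without C57BL/6J for Gpx5 (-0.433) and Nr1d1 (0.053), without CBA/J for Lep (-0.069), without DBA/2J for Gpd2 (-0.072), without B6C3F1/J for Nr1d1 (0.022) and without the 9 arrays that stood apart for Nr1d1 (0.029). None of these reversed values passed the test. Leaving out 129S1/SvImJ took the call from 62 of the 133 of these genes that were called, and leaving out C57BL/6J from 42. With 2 strains against 4 and no strain on both rations, the number of strains and not the 8 mice a group limits these comparisons. RMA values carry no detection call, so low signals such as those of Elovl3 in the deeply restricted strains have no stated floor.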
